A study of Schizosaccharomyces pombe with 8 samples.

Results

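The 10 genes described here encode the core histones of the fission yeast Schizosaccharomyces pombe and its H2A variant H2A.Z. They were chosen by name from the coding count table: hht1, hht2 and hht3 for histone H3, hhf1, hhf2 and hhf3 for H4, hta1 and hta2 for H2A, htb1 for H2B, and pht1 for H2A.Z. These are 10 of the 5137 coding features, and all 10 were among the 4652 that passed the low-count filter. Nucleosomes wrap DNA around an octamer of H2A, H2B, H3 and H4, and cells make most of these proteins during DNA replication. In fission yeast the GATA-type factor Ams2 activates histone genes in S phase, and AACCCT repeats in front of the genes are known elements of their promoters. H2A.Z replaces H2A in selected nucleosomes after deposition by the SWR1 complex, and INO80, the complex under study, is a nucleosome remodeler that has been linked to the turnover of H2A.Z nucleosomes.

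The 4 strains gave 2 libraries each: CS2354, labelled nht1-delta, CS2379, labelled iec1-delta, CS2370, labelled iec5-delta, and the wild-type strain SPJ1577. The deletion labels name subunits of INO80, and no other allele is named. All cells grew in YEA, a rich yeast medium, to mid-log phase, so each library mixes cells of every cell cycle stage, and fewer cells in S phase cannot be told apart from less histone RNA per cell. Total RNA was depleted of ribosomal RNA and sequenced from strand-specific libraries. Nothing in the labels says that the libraries of a group came from separate cultures, so p-values measure the spread between these libraries, which may be technical.

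Coding counts ran from 2208165 to 3426063 reads per library, and a histone gene had 247 to 2791 reads in a library. The targeted genes were measured in every strain. The nht1 gene stood at 66.3% of its wild-type level in the nht1 libraries (log2 fold change -0.60, SE 0.24, adjusted p = 0.212 in the edgeR quasi-likelihood test with Benjamini-Hochberg adjustment), with 24.9 and 34.9 CPM (counts scaled for library size) there against 48.6 and 41.6 CPM in wild type. Both nht1 libraries were below wild type, but the difference did not pass the test and reads remained, so the counts do not settle the nht1 label, and every direction given for nht1 rests on it. The iec5 gene stood at 18.8% in the iec5 libraries (-2.41, SE 0.47, adjusted p = 0.0278 in edgeR). The iec1 gene was at 239% of wild type in the libraries labelled iec1 (1.25, SE 0.21, adjusted p = 0.000741 in edgeR), with 95.4 and 88.4 CPM there against 40.5 and 36.4 CPM in wild type. That goes against the label, so these are called the libraries labelled iec1, and every direction drawn from them rests on a label that the reads do not bear out.

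The histone genes lie at 6 loci on 3 chromosomes, and 8 of them form 4 divergent pairs. On build ASM294v2, as the count table gives it, hht1 (SPAC1834.04) spans chromosome I 4699691 to 4700560 on the plus strand, beside hhf1 (SPAC1834.03c) at 4698773 to 4699544 on the minus strand. The pair of hht2 (SPBC8D2.04, II 1365041 to 1365818, plus) and hhf2 (SPBC8D2.03c, II 1364189 to 1365043, minus) shares 3 bases. On the same chromosome hht3 (SPBC1105.11c, 3528800 to 3529657, minus) lies head to head with hhf3 (SPBC1105.12, 3529657 to 3530388, plus), and pht1 (SPBC11B10.10c) stands alone at 1502203 to 1503468 on the minus strand. The only H2B gene, htb1 (SPCC622.09, III 1412387 to 1413677, plus), is paired with hta1 (SPCC622.08c, III 1411144 to 1412214, minus), and hta2 (SPAC19G12.06c) stands alone at I 4052446 to 4053397 on the minus strand. By the same coordinates htb1 overlaps sec5 by 258 bases and hht3 overlaps rav1 by 46.

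Upstream sequence was described for 8 of the genes, and a tandem repeat of the AACCCT box was found before 7 of them. The 4 boxes are shown because they are an element that these core histone genes have in common before their start codons. The letters are from the RefSeq assembly ASM294v3, 5′ to 3′ on the strand that reads AACCCT, with the repeat in capitals.
hht1-hhf1: ctgcatcaaAACCCTAACCCTgcttttgat
hht2-hhf2: gtcaatcacAACCCTAACCCTgatttaaga
hht3-hhf3: tttgatcacAACCCTAACCCTttaattaaa
hta2: atccatcaaAACCCTAACCCTgtatattgc
On that build the boxes lie at chrI:4699652-4699663 (plus strand), chrII:1365060-1365071 (minus), chrII:3529627-3529638 (plus) and chrI:4053371-4053382 (minus). By number, the boxes of hht2-hhf2, hht3-hhf3 and hta2 fall inside the counted spans of hht2, hht3 and hta2. Those spans are on build ASM294v2, and the positions were not converted between builds. All 4 boxes carry the bases atca shortly before the repeat. The repeat was searched as AACCCTAACCCT on both strands in the 400 bases before each start codon. It occurred in 15 of 5110 such windows (0.294%), among them those of 7 histone genes, and the single hexamer AACCCT in 647 (12.7%), which include every window with the repeat. The 3 pairs of H3 and H4 genes share a box each, so the 7 genes do not give 7 separate matches. The pht1 window held neither the repeat nor the hexamer. These letters are a description of the windows, not a test of binding.

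**Figure D1:**
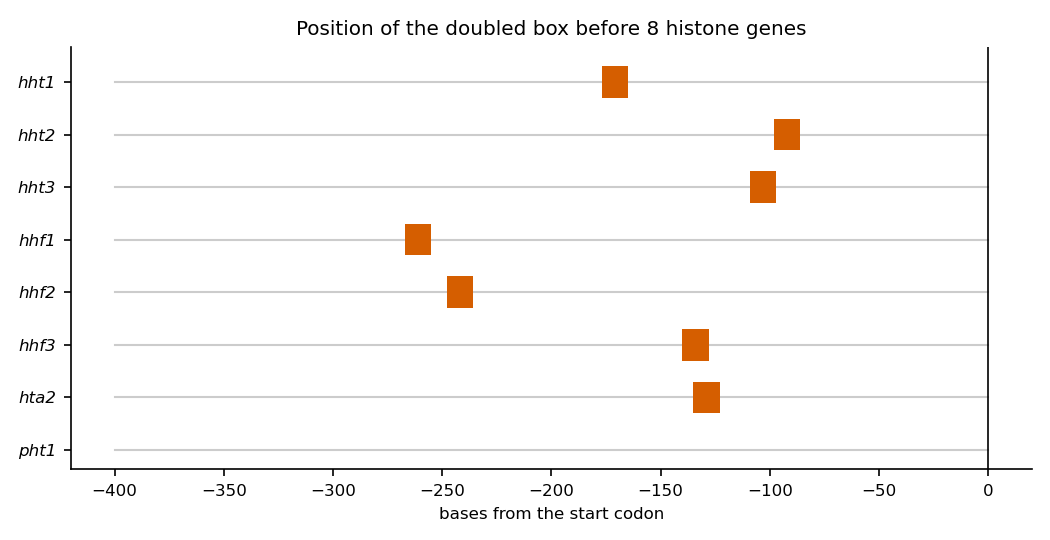
Distance in bases of the tandem AACCCT repeat (orange block) from the start codon (0) of 8 histone genes; grey lines are the 400-base windows searched. The repeat lies 86 bases before the start codon of hht2 and 255 before that of hhf1, and pht1 has none in its window.

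The box stood 165 bases before the start codon of hht1 and 255 before that of hhf1, its divergent partner. Distances were 86 and 236 bases for hht2 and hhf2, 97 and 128 for hht3 and hhf3, and 123 for hta2. In the pairs of hht1, hht2 and hht3 the box was nearer to the H3 gene.

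The coding sequences of the H3 genes were 88.3% to 92.7% identical to each other, and those of the H4 genes 91.3% to 93.3%. The first 90 coding bases are shown because they let a reader see how far reads can tell the copies apart. Capitals mark the positions at which the 3 copies differ, 14 in H3 and 13 in H4 (RefSeq, ASM294v3, coding strand).
hht1: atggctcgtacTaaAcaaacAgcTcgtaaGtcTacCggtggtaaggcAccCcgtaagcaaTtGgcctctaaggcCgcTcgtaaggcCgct
hht2: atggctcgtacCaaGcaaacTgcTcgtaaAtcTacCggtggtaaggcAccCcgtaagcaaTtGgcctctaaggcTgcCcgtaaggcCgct
hht3: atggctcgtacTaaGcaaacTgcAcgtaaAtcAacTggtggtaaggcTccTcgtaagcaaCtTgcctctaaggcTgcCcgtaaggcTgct
hhf1: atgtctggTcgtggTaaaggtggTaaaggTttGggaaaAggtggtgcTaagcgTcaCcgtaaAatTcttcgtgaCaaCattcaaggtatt
hhf2: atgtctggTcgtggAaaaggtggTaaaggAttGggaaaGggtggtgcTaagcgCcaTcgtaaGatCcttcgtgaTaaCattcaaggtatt
hhf3: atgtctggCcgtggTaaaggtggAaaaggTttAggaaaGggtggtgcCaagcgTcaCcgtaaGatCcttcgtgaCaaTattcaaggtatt
Of all 50-base stretches of a gene, 98.95% or more occurred once in the genome, and of 100-base stretches 100% did for all 10 genes. The treatment of reads that fit several places was not given in the sources used here, so the split between copies carries that uncertainty.

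Per kilobase of counted length, the histone genes stood well above the median tested gene, which was at 38.7 CPM per kilobase in nht1, 39.7 in the libraries labelled iec1, 38.5 in iec5 and 37.9 in wild type. In wild type the order of mean levels was hhf3 (1003 ± 230 CPM per kilobase, SD, n = 2), hht1 (931 and 932 in the 2 libraries), hhf2 (415 ± 2.16), htb1 (358 ± 3.29), hhf1 (311 ± 14.7), hht3 (276 ± 16.4), hta1 (263 ± 6.11), hta2 (245 ± 61.0), hht2 (144 ± 18.6) and pht1 (83.8 ± 1.75). The ranges of hhf3 and hht1 overlapped in nht1, iec5 and wild type but not in the libraries labelled iec1. The lowest levels, in every strain, were those of hht2 among the core histones and of pht1 among all 10. By level per kilobase, pht1 ranked 1153rd to 1324th of 4652 genes over the 4 strains, and hhf3 111th to 141st.

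No histone gene was called between strains in the fit of all 8 libraries by group. Of 60 tests (10 genes in 6 comparisons), 0 passed an adjusted p under 0.05 in edgeR's quasi-likelihood test and 0 in DESeq2, and 2 had an unadjusted p under 0.05. Against wild type the background of called genes was 4.13% in nht1, 10.3% in the libraries labelled iec1 and 0.408% in iec5. Between mutants it was 0.15% for the libraries labelled iec1 against nht1, 0.537% for iec5 against nht1 and 4.71% for the libraries labelled iec1 against iec5. A count of 0 among 10 is close to each of these shares. The 30 intervals of the fold changes against wild type (95%) spanned 0.636-fold to 1.63-fold, and 0 of them reached 2-fold, with standard errors from 0.12 to 0.20 on the log2 scale. Where an interval includes no change, the changes inside it cannot be told from none for the gene concerned. Only the interval of hhf2 in the libraries labelled iec1 left out no change, and hhf2 did not pass the adjusted threshold.

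**Figure D2:**
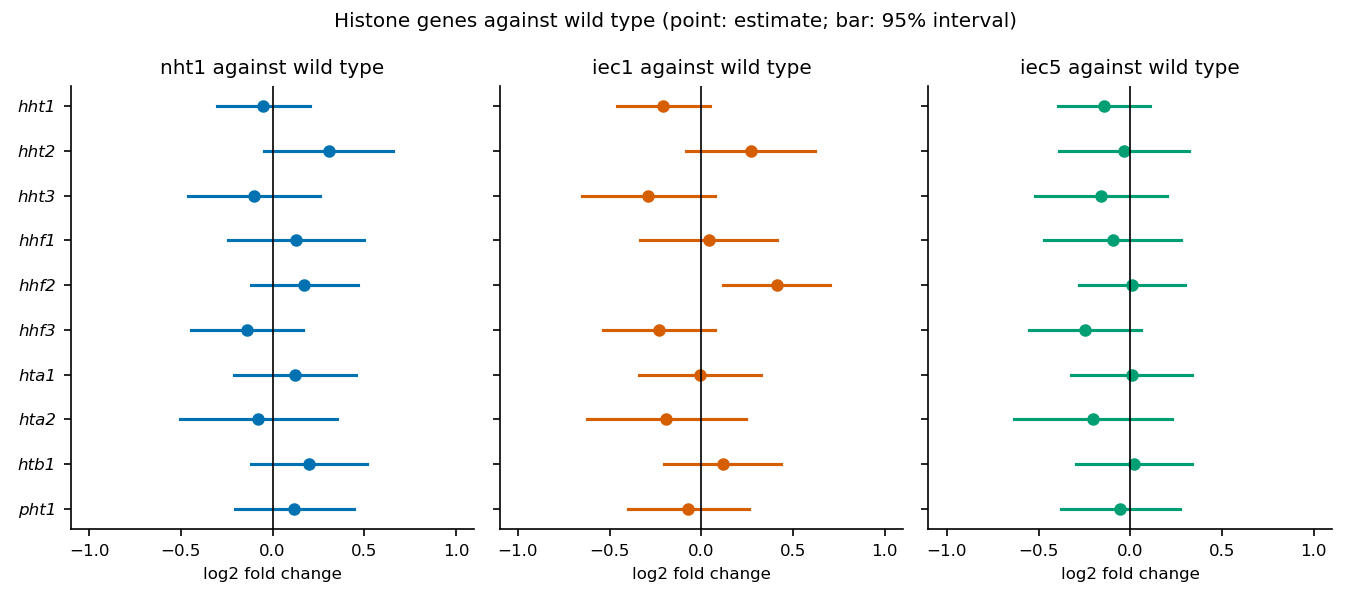
Log2 fold change against wild type of each histone gene (points) with its 95% interval (bars), for nht1, the libraries labelled iec1 and iec5 from left to right. The hhf2 interval in the libraries labelled iec1 (0.12 to 0.70) is the only one that leaves out 0.

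Of the H3 genes, hht1 was the most abundant. It had 825 and 741 CPM in nht1, 696 and 708 CPM in the libraries labelled iec1, 727 and 741 CPM in iec5, and 811 and 809.9 CPM in wild type. Both libraries labelled iec1 and both iec5 libraries lay below wild type, and the nht1 libraries lay on either side of it. The fold changes were -0.21 in the libraries labelled iec1 (log2, SE 0.12, adjusted p = 0.314 in edgeR) and -0.14 in iec5 (SE 0.12, adjusted p = 0.993 in edgeR).

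The lowest H3 gene, hht2, had 144 and 132 CPM in nht1, 153 and 117 CPM in the libraries labelled iec1, 118 and 100.3 CPM in iec5, and 122 and 102 CPM in wild type. Both nht1 libraries were above both wild-type libraries, with a log2 fold change of 0.31 (SE 0.17, adjusted p = 0.378 in edgeR), and the other strains overlapped wild type. For hht3 the values were 229 and 212 CPM in nht1, 236 and 155 CPM in the libraries labelled iec1, 233 and 192 CPM in iec5, and 227 and 247 CPM in wild type, and every mutant overlapped wild type. Its log2 fold change in the libraries labelled iec1 was -0.29 (SE 0.17, adjusted p = 0.33 in edgeR). Without the first library labelled iec1 the value was -0.61 and the gene was called (adjusted p = 0.0402 in edgeR), so that call rests on a lone library.

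Among the H4 genes, hhf2 came nearest to a call. It had 429 and 370.3 CPM in nht1, 521 and 424 CPM in the libraries labelled iec1, 371 and 344 CPM in iec5, and 356 and 353 CPM in wild type. Both libraries labelled iec1 and both nht1 libraries lay above wild type, while the iec5 libraries lay on both sides of it. In the libraries labelled iec1 the log2 fold change was 0.41 (SE 0.14, interval 0.12 to 0.70), with an unadjusted p of 0.00852 and an adjusted p of 0.0691 in edgeR. Against iec5 the libraries labelled iec1 differed by 0.40 (SE 0.14, adjusted p = 0.127 in edgeR). The hhf2 value against wild type depended on the library kept. It was 0.26 without the first library labelled iec1 and 0.51 without the second.

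The other H4 genes overlapped wild type in every mutant. For hhf1 there were 237 and 288 CPM in nht1, 295 and 201 CPM in the libraries labelled iec1, 253 and 197 CPM in iec5, and 232 and 248 CPM in wild type. For hhf3 there were 639.8 and 691 CPM in nht1, 619 and 629 CPM in the libraries labelled iec1, 599 and 638 CPM in iec5, and 615 and 853 CPM in wild type. The spread of hhf3 was widest in wild type, where 1 library was above every other library of the set, and without that library its fold change turned from negative to positive in all 3 mutants.

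The H2A and H2B genes showed the same lack of separation apart from htb1 in nht1. The H2B gene htb1 had 489 and 571 CPM in nht1, 576 and 427 CPM in the libraries labelled iec1, 503 and 434 CPM in iec5, and 459 and 465 CPM in wild type. Both nht1 libraries exceeded wild type (log2 fold change 0.20, SE 0.15, adjusted p = 0.553 in edgeR), and the other strains overlapped it. For hta1 there were 282 and 329.5 CPM in nht1, 329 and 232 CPM in the libraries labelled iec1, 297 and 269 CPM in iec5, and 277 and 286 CPM in wild type. The nht1 and iec5 ranges each overlapped wild type, and the libraries labelled iec1 lay on both sides of it.

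The second H2A gene, hta2, had 202 and 241 CPM in nht1, 254 and 158 CPM in the libraries labelled iec1, 223 and 183 CPM in iec5, and 192 and 275 CPM in wild type. Every mutant overlapped wild type. The variant H2A.Z gene, pht1, had 116 and 115 CPM in nht1, 113 and 89.9 CPM in the libraries labelled iec1, 103 and 101 CPM in iec5, and 104 and 108 CPM in wild type. Both nht1 libraries were above wild type (log2 fold change 0.12, SE 0.15, adjusted p = 0.753 in edgeR) and both iec5 libraries below it (-0.05, SE 0.15, adjusted p = 0.993 in edgeR).

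**Figure D3:**
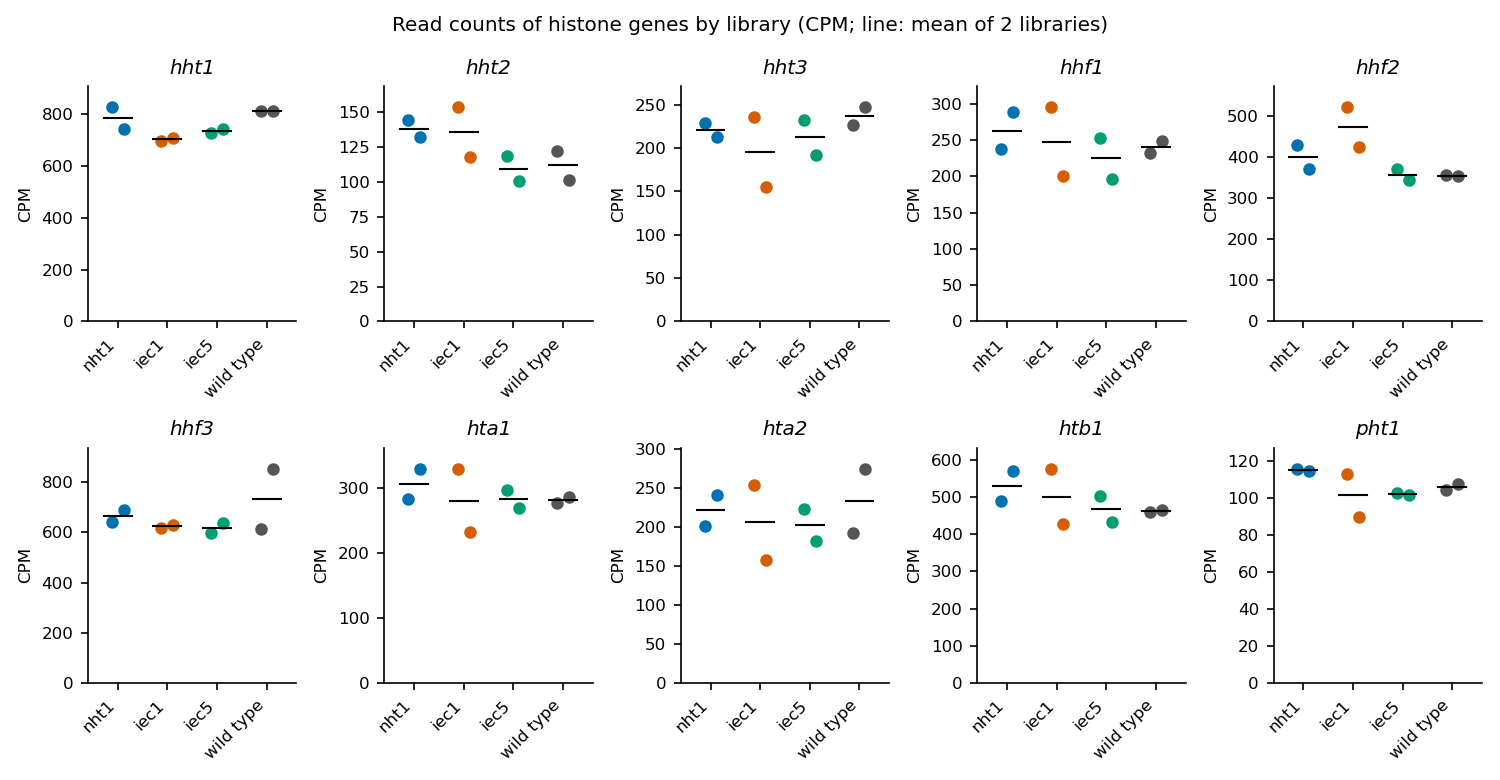
CPM (counts scaled for library size) of the 10 histone genes in each library (points, replicate 1 at left) with the mean of the group's 2 libraries (lines), in nht1, the libraries labelled iec1, iec5 and wild type. The libraries labelled iec1 are both above wild type for hhf2 (521 and 424 against 356 and 353 CPM).

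Counting genes whose libraries did not overlap gave 4 of 10 in nht1 against wild type (hht2, hhf2, htb1 and pht1), all above, where 26.8% of all tested genes lay above and 47.9% did not overlap in either direction. In the libraries labelled iec1 there were 2, hhf2 above (background 27.8%) and hht1 below (23.3%), beside 51.0% in either direction. In iec5 there were 2, hht1 and pht1, both below (background 14.0%), beside 32.1% in either direction. Between mutants, 3 were below for the libraries labelled iec1 against nht1 (background 14.8%, either direction 33.1%) and 3 below for iec5 against nht1 (22.1% and 39.9%). For the libraries labelled iec1 against iec5 there was 1 above (24.5%) and 1 below (21.7%), beside 46.2% in either direction. With both directions pooled, the histone genes did not exceed the background in any of the 6 comparisons. Taken by direction against wild type, 4 of 10 lay above in nht1 beside 26.8%, and 2 of 10 below in iec5 beside 14.0%. Below nht1 lay 3 of 10 in the libraries labelled iec1 beside 14.8%, and 3 of 10 in iec5 beside 22.1%. With 10 genes, each of these counts is within a few genes of its share. No excess by direction was tested, and none is drawn from these counts. The median log2 fold change of the 10 genes was 0.12 in nht1, -0.04 in the libraries labelled iec1 and -0.08 in iec5, beside medians of 0.02, 0.02 and 0.01 over all tested genes. Between mutants the median was -0.10 for the libraries labelled iec1 against nht1 (9 of 10 genes negative), -0.14 for iec5 against nht1 (10 of 10 negative) and 0.01 for the libraries labelled iec1 against iec5 (4 of 10 negative), beside medians of -0.0033, -0.02 and 0.02 over all tested genes. These comparisons share libraries with each other, and the genes of a comparison share its libraries.

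Because copies of one protein can exchange reads, the families were also summed. The 3 H3 genes summed to 1199 and 1085 CPM in nht1, 1085 and 981 CPM in the libraries labelled iec1, 1078 and 1034 CPM in iec5, and 1160 and 1158 CPM in wild type. The libraries labelled iec1 and iec5 lay below wild type (log2 ratio of means -0.17 and -0.13, no test), and nht1 overlapped it. As hht1 held 64.2% to 72.2% of the H3 counts, this largely repeats the hht1 values given above. The H4 sums were 1306 and 1350 CPM in nht1, 1435 and 1254 CPM in the libraries labelled iec1, 1222 and 1178 CPM in iec5, and 1203 and 1455 CPM in wild type, with overlap throughout. The H2A sums were 484 and 571 CPM in nht1, 583 and 390.0 CPM in the libraries labelled iec1, 519.9 and 451 CPM in iec5, and 469 and 560.4 CPM in wild type, again with overlap.

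Within families, hht1 held most of the H3 counts in every library (64.2% to 72.2%). The share of hhf2 in H4 was 32.9% and 27.4% in nht1, 36.3% and 33.8% in the libraries labelled iec1, 30.3% and 29.2% in iec5, and 29.6% and 24.3% in wild type. Both libraries labelled iec1 were above both wild-type libraries in that share. A share also depends on the other genes of the family, and hhf3 held 51.1% and 58.7% of the H4 counts in wild type. The hhf2 share rests on the same hhf2 counts as its fold change and had no test. The share of hht2 in H3 was 12.05% and 12.14% in nht1, and 14.1% and 11.98% in the libraries labelled iec1. It was 10.97% and 9.70% in iec5, and 10.5% and 8.76% in wild type. Both nht1 libraries and both libraries labelled iec1 exceeded both wild-type libraries there, and iec5 overlapped wild type. The hht2 and hhf2 genes form a divergent pair, but the hhf2 share in nht1 overlapped wild type. The hht2 CPM in the libraries labelled iec1 also overlapped wild type. A joint change of the pair was not tested.

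**Figure D4:**
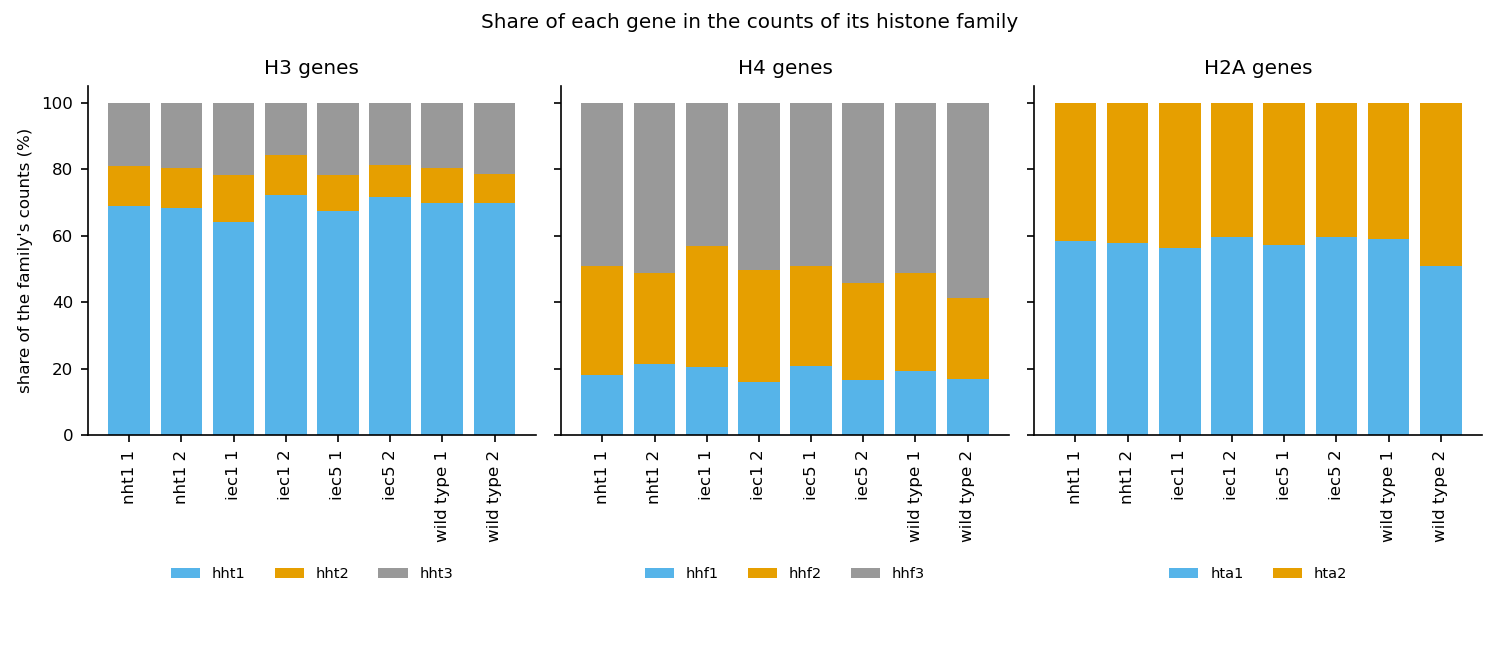
Share of each gene in the summed counts of its histone family (%) in each library, with nht1, the libraries labelled iec1 and iec5 to the left of wild type. The hhf2 share of H4 is 36.3% and 33.8% in the libraries labelled iec1, against 29.6% and 24.3% in wild type.

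Per length, the partners of a divergent pair kept unequal levels in all 8 libraries: hht1 over hhf1 ran from 2.09 to 3.35, hhf2 over hht2 from 2.56 to 3.28, hhf3 over hht3 from 3.01 to 4.77 and htb1 over hta1 from 1.34 to 1.53. The H3 gene was the higher partner in the pair of hht1, and the H4 gene in the pairs of hhf2 and hhf3.

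Replicates were also compared within strains. Between the libraries labelled iec1, 8 of 10 histone genes were higher in replicate 1, with log2 ratios up to 0.69, where 50.4% of all tested genes were higher in replicate 1. In iec5 8 of 10 were higher in replicate 1 (all genes 51.9%), in nht1 5 of 10 (48.3%) and in wild type 3 of 10 (51.0%). The median absolute log2 ratio between replicates was 0.18 for the histone genes in nht1 (all tested genes 0.18), 0.41 in the libraries labelled iec1 (0.21), 0.18 in iec5 (0.18) and 0.07 in wild type (0.18). Across the 8 libraries, the genes that followed the mean pattern of the 9 core histone genes most closely (Pearson r of log2 CPM, among 4575 candidates) were ies4, which encodes an INO80 subunit (0.98, with 4.70 to 13.3 CPM), the ribosomal protein genes rps1701 (0.95) and rps3 (0.94), pqr1 (0.94) and scw1 (0.93). As the libraries share 4 strains and the pattern is partly the difference between replicates, these values are a description. The 9 genes themselves followed their mean pattern unevenly, and each is part of that pattern, which raises its value. Values were 0.16 for hht1, 0.30 for hhf3, 0.37 for hhf2 and 0.60 for hht2, and from 0.81 (hht3) to 0.93 (hhf1) for the rest. For pht1, which was left out of the pattern, the value was 0.89, so it does not compare directly with those of the 9.

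Genes that act on histones or on replication were counted in 5 lists. Of 9 regulators of histone genes, ams2 rose in nht1 and in the libraries labelled iec1, and 0 of 9 were called in iec5. That is 11.1% of the list in nht1 (all tested genes 4.13%), 11.1% in the libraries labelled iec1 (10.3%) and 0 in iec5 (0.408%). The ams2 gene had 97.5 and 96.0 CPM in nht1, 116 and 121 CPM in the libraries labelled iec1, 70.8 and 84.0 CPM in iec5, and 49.2 and 70.6 CPM in wild type. All 6 mutant libraries were above both wild-type libraries, but the lower iec5 library (70.8 CPM) nearly equalled the higher wild-type library (70.6 CPM). The log2 fold changes were 0.69 in nht1 (SE 0.18, adjusted p = 0.0391 in edgeR) and 0.98 in the libraries labelled iec1 (SE 0.18, adjusted p = 0.0015 in edgeR), with 0.37 in iec5 (SE 0.18, adjusted p = 0.993 in edgeR), and the nht1 call was lost without wild-type replicate 1 (adjusted p = 0.279) or without either nht1 library (0.173 and 0.192).

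Of 14 tested chaperone genes, fkbp39, a prolyl isomerase and histone chaperone gene, fell in the libraries labelled iec1 and 0 were called in the other mutants. That is 7.14% of the list, beside 10.3% of all tested genes. The fkbp39 gene had 1279 and 1312 CPM in nht1, 1100.0 and 1272 CPM in the libraries labelled iec1, 1449.9 and 1549 CPM in iec5, and 1444 and 1842 CPM in wild type. Both nht1 libraries and both libraries labelled iec1 were below wild type. The log2 fold change was -0.34 in nht1 (SE 0.13, adjusted p = 0.192 in edgeR) and -0.47 in the libraries labelled iec1 (SE 0.13, adjusted p = 0.0321 in edgeR). That call was lost without wild-type replicate 2 (adjusted p = 0.324), the first library labelled iec1 (0.237), nht1 replicate 1 (0.0535) or nht1 replicate 2 (0.0527), and in a fit of the 2 groups alone (0.0799).

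Of 20 S phase and replication genes, 2 were called in the libraries labelled iec1 and 0 in the other mutants. That is 10% of the list, beside 10.3% of all tested genes. The licensing factor gene cdt1 had 25.8 and 35.6 CPM in nht1, 53.6 and 47.9 CPM in the libraries labelled iec1, 29.6 and 28.6 CPM in iec5, and 17.2 and 23.8 CPM in wild type. It rose in the libraries labelled iec1 (log2 fold change 1.30, SE 0.25, adjusted p = 0.00206 in edgeR), and the other mutants also lay above wild type without passing the test. The replicative helicase gene mcm6 had 340.1 and 279.7 CPM in nht1, 285 and 293 CPM in the libraries labelled iec1, 378 and 383 CPM in iec5, and 387 and 395 CPM in wild type. It fell in the libraries labelled iec1 (-0.44, SE 0.13, adjusted p = 0.0436 in edgeR), a call that was lost without either wild-type library (adjusted p = 0.121 and 0.171), either library labelled iec1 (0.183 and 0.0705) or either iec5 library (0.0605 and 0.0608), and in a fit of the 2 groups alone (0.0799).

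Of 8 tested SWR1 genes and 22 tested genes of histone modifying enzymes, 0 were called in any comparison with wild type, where 4.13% (nht1), 10.3% (the libraries labelled iec1) and 0.408% (iec5) of all tested genes were. The median log2 fold changes of the 5 lists lay between -0.13 and 0.08, beside 0.01 to 0.02 over all tested genes.

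The genes next to the histone genes were compared as well. Of 12 neighbours 11 were tested, and 0 were called in any mutant against wild type, beside the same 4.13%, 10.3% and 0.408% of all tested coding genes. A further 4 noncoding features overlapped a histone gene or lay within 1000 bases of one, and 0 were called. The counts of SPNCRNA.1611 and SPNCRNA.1194 nearly repeat those of hhf3 and hta1, as described below. Their tests therefore add nothing to the tests of those 2 genes. Against wild type the background of called noncoding features was 6.57% in nht1, 14.7% in the libraries labelled iec1 and 1.46% in iec5. It was 0.547% and 1.46% in the libraries labelled iec1 and in iec5 against nht1, and 7.76% in the libraries labelled iec1 against iec5. Of the 4 features, SPNCRNA.1610 lies 104 bases from hht3. It had a log2 fold change of 0.46 (SE 0.21) in nht1 and in the libraries labelled iec1 (adjusted p = 0.252 and 0.178 in edgeR).

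Counts from opposite strands could not be told apart. SPNCRNA.1611 lies on the strand opposite to hhf3 and covers 100% of it, and its count stayed close to that of hhf3 in all 8 libraries. In the first nht1 library it had 2040 reads, beside 2034 for hhf3, and in the second wild-type library both had 2791. SPNCRNA.1194 covers 100% of hta1 on the opposite strand, with 1.01 to 1.02 times its count. Over both tables, 93 of 104 noncoding features that contain a single coding gene of the opposite strand had at least as many reads as that gene (89.4%, median ratio 1.04). The libraries were strand-specific, per the labels, but these counts do not separate the strands, so antisense reads would be counted in the levels given above. How reads were counted in the bases that htb1 shares with sec5, or hht3 with rav1, is also not known. The levels per kilobase and the ratios within pairs use the full length of each gene.

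**Figure D5:**
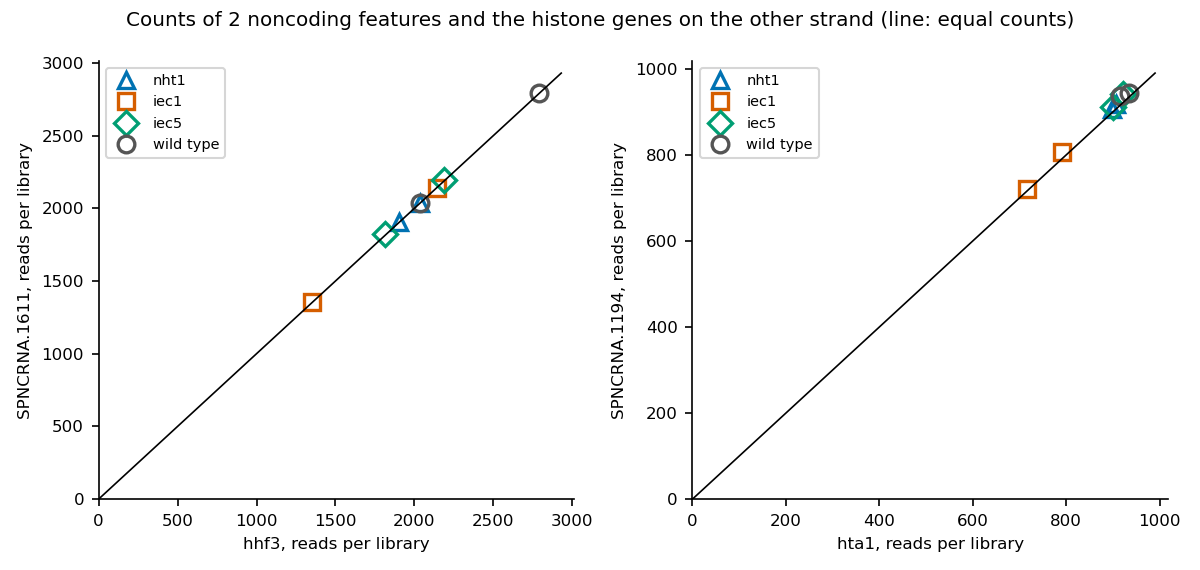
Reads per library of 2 noncoding features (vertical axes) against the histone genes on the other strand (horizontal axes), for nht1 (triangles), the libraries labelled iec1 (squares), iec5 (diamonds) and wild type (circles); the line marks equal counts. All 8 libraries lie on or just above the line in both panels.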

How the data were processed

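RNA from 8 libraries was analysed as counts. The authors deposited 1 table of coding and 1 of noncoding raw counts per gene. Per the submitters' processing notes, the tools were HISAT2 2.1.0, featureCounts 1.6.1 and DESeq2 1.28.0 with build ASM294v2. The strand setting and the handling of multi-mapping reads were not given in the sources used here. From the counts, CPM were computed with TMM-scaled library sizes. The edgeR 4.0.16 quasi-likelihood test (R 4.3.3, filterByExpr, 1 fit of 8 libraries, Benjamini-Hochberg adjustment over 4652 coding genes or 1096 noncoding features) called genes at an adjusted p under 0.05. Noncoding features took coding library sizes and TMM factors. Standard errors are approximate. Sums, shares and correlations (prior count 2) had no test. Alternatives were DESeq2 1.42.0, RLE normalization, no filter, a replicate block, 2 groups only and 8 fits without 1 library. The fits were tested on simulated data. Members and gene lists were chosen with earlier results of these data known. Named genes were all members, up to 4 called genes per list and comparison, and the 5 genes of most similar pattern. RefSeq symbols matched 5115 of 5137 coding IDs, and sequences came from ASM294v3, not from the build of the counts. The sequence upstream of hta1 and htb1 is not reported here. Figures used matplotlib 3.10.9.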

Additional observations from a re-analysis of the deposited data

How the results depend on the processing

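Under 13 alternatives, 358 of 390 member fold changes against wild type kept their direction and side of the threshold, 2 passed it and 30 changed sign. With the replicate block, 1 gene was called in the libraries labelled iec1 against wild type (hhf2, 0.40, adjusted p = 0.0248 in edgeR) and 1 against iec5 (hhf2, adjusted p = 0.0468), and calls over all genes were 356, 695 and 37 against wild type beside 192, 477 and 19. Deviations of same-numbered libraries correlated from -0.069 to 0.274, above 0.1 in 3 of 6 pairs of groups, so a pairing by number was not established and a shared batch cannot be settled from them. For the libraries labelled iec1 against iec5, calls over all genes were 329 with the block, beside 219. The fold change of hht3 in the libraries labelled iec1 against wild type was -0.29 with all libraries. It was -0.61 without the first library labelled iec1 and -0.05 without the second. Of the 5 genes of most similar pattern, Spearman's correlation kept 2. Fold changes near 0 turned sign in iec5 for hhf2 (-0.0021 in DESeq2, -0.0020 with RLE, -0.0024 with 2 groups) and hta1 (-0.0048, -0.0048 and -0.0053). Over fits without 1 library, log2 fold changes that turned sign ran in nht1 from -0.13 to 0.026 (hht1), -0.015 to 0.27 (hhf1), -0.36 to 0.11 (hhf3) and -0.31 to 0.20 (hta2). In the libraries labelled iec1 they ran from -0.26 to 0.25 (hhf1), -0.45 to 0.022 (hhf3), -0.27 to 0.18 (hta1), -0.11 to 0.27 (htb1), -0.56 to 0.087 (hta2) and -0.24 to 0.049 (pht1). In iec5 they ran from -0.29 to 0.076 (hhf1), -0.16 to 0.11 (hht2), -0.045 to 0.064 (hhf2), -0.46 to 0.0072 (hhf3), -0.066 to 0.079 (hta1), -0.091 to 0.12 (htb1) and -0.44 to 0.075 (hta2). The cause was not tested. With 2 libraries a group, the intervals of single genes stay wide.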

Other observations

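The tandem AACCCT repeat also lay in the 400-base windows of 8 other genes, a set chosen after the data were seen and given as values with no test of the set. They were the heat shock protein genes hsp90, ssa1 and ssa2, the translation factor genes tif51 and eft201, the TATA-binding protein gene tbp1, spi1, which encodes a Ran-type GTPase, and SPAC27E2.11c. Of these, 1 of 8 was called in nht1, where hsp90 rose (log2 fold change 0.49, adjusted p = 0.0336 in edgeR with Benjamini-Hochberg adjustment). In the libraries labelled iec1 and in iec5, 0 of 8 were called. Over all tested genes, 4.13% were called in nht1, 10.3% in the libraries labelled iec1 and 0.408% in iec5. The ssa2 gene stood at 0.59 in nht1 (adjusted p = 0.0519 in edgeR) and 0.45 in the libraries labelled iec1 (adjusted p = 0.0923 in edgeR). For ssa1 the values were 0.62 (adjusted p = 0.215 in edgeR) and 0.74 (adjusted p = 0.0747 in edgeR). Negative values included those of tif51, with -0.15 in nht1, -0.10 in the libraries labelled iec1 and -0.13 in iec5. The eft201 gene stood at -0.13 in the libraries labelled iec1.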
